A study of Mus musculus with 10 samples.

Results

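The genes described here supply peptides to MHC class I molecules. They are Psmb8, Psmb9 and Psmb10 (the inducible catalytic subunits of the immunoproteasome), Tap1, Tap2, Tapbp and B2m (peptide transport and loading), Erap1 (peptide trimming) and Nlrc5 (a transcriptional activator of the pathway). They were chosen by gene symbol, as 9 of the 18193 genes to which the array's annotation gives a probe set of their own, and 16 probe sets carried these 9 symbols alone. The arrays were Affymetrix MOE430_2 and measured splenic natural killer (NK) cells and whole splenocytes of the mouse. All NK cells came from the spleens of wild type C57Bl/6 animals and had been flow sorted as NK1.1+CD3- cells to a purity stated as above 99%. In the resting group (3 arrays, 3 biological replicates) the sorted cells were lysed at once, and in the IL-15 group (3 arrays, 3 biological replicates) they were first kept for 24 h with 100 ng/mL of recombinant mouse IL-15, a cytokine that sustains and activates NK cells. The splenocyte group held 4 chips of resting, unsorted splenocytes, which the design describes as 2 biological samples on 2 chips each. The age of the animals is not given in the labels. NK cells kept for 24 h without IL-15 are not part of the labelled groups, so IL-15 and time in culture cannot be told apart. NK RNA was amplified in 2 cycles and splenocyte RNA in 1 cycle, so cell type and amplification cannot be told apart either.

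MHC class I molecules show the outside of the cell short peptides cut from its own proteins, which T cells inspect and against which NK cells calibrate their inhibitory receptors. The proteasome cuts the proteins, the TAP transporter carries the pieces into the endoplasmic reticulum, ERAP1 trims them there, and tapasin (Tapbp) holds the empty heavy chain and its light chain, B2m, at the transporter until a peptide fits. In lymphocytes and in cells exposed to interferon the inducible subunits Psmb8, Psmb9 and Psmb10 take the places of Psmb5, Psmb6 and Psmb7 in newly built proteasomes, and NLRC5 acts on the promoters of several genes of the pathway.

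Psmb9, Tap1, Psmb8 and Tap2 are neighbours on chromosome 17. Promoter windows of 300 bases, from 250 before to 50 after a transcription start, were found in RefSeq (GRCm38.p6) for 7 of the 9 genes. Each was searched on both strands for GAAANNGAAA, a form of the site that interferon regulatory factors bind, for TTCNNNGAA, the core of the STAT site called GAS, and for ATTGG, the CCAAT box. Of 32851 such windows in the table, 3.44% held the first, 8.3% the second and 37.4% the third. A match to GAAANNGAAA was found for B2m and Erap1, and one to TTCNNNGAA for Psmb8. The windows of these 3 genes are given because they hold the matches, and that of Tap1 because it overlaps the window of Psmb9, read from the other strand, over 275 bases. All 4 lie on the plus strand at chr2:122147437-122147736 (B2m), chr13:74639603-74639902 (Erap1), chr17:34197945-34198244 (Psmb8) and chr17:34187306-34187605 (Tap1). Capitals mark matches to the first 2 motifs, which share no letters in these windows.
B2m: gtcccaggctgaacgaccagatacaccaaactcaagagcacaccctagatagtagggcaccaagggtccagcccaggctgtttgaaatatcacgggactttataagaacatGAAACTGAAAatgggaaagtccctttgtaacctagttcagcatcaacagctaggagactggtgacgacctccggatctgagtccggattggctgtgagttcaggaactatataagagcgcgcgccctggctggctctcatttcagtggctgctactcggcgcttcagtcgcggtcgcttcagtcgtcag
Erap1: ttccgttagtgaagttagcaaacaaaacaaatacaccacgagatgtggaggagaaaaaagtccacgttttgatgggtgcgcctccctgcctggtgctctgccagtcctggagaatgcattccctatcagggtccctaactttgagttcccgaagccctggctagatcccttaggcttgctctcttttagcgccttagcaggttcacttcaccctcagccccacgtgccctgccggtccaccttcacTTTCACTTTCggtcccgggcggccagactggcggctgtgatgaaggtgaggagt
Psmb8: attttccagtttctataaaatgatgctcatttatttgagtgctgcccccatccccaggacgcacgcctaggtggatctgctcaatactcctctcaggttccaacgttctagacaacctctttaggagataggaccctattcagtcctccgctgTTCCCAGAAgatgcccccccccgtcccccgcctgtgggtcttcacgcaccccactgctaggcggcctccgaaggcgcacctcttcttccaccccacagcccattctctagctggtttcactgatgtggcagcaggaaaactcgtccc
Tap1: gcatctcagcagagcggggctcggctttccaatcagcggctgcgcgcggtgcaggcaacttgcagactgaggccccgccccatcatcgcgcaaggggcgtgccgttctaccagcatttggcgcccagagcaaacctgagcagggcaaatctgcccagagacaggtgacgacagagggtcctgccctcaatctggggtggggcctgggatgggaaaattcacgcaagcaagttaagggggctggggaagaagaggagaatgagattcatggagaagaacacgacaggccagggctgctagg
In the B2m window the match began 139 bases before the start site (GAAACTGAAA). That of Erap1 was on the other strand, from 4 bases before the start site (TTTCACTTTC), and this window lies inside the annotated span of the gene. Psmb8 had TTCCCAGAA from 97 bases before the start. The windows of Tap1, Psmb9, Tapbp and Psmb10 held neither of the first 2 motifs. ATTGG or its complement stood in the windows of B2m, Tap1, Psmb9 and Tapbp, where it overlaps neither of the other motifs. A match is a description of these letters and not of binding.

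Values are deposited signals, scaled by the authors to a common mean on every array, so a signal is a level relative to the other probe sets of its array. Signals below a floor of 179.85 were set to it, and every difference is between group means of log2 signal of the brightest probe set of a gene. The share of probe sets above the floor was 57.8% to 61.7% for resting NK cells, 51.1% to 56.5% after IL-15 and 61.2% to 62.4% for splenocytes, and the brightest probe sets of all 9 genes were above it on 10 of 10 arrays. Summed over 8 NK markers, resting NK arrays reached 878% to 1094% and IL-15 NK arrays 652% to 723% of the splenocyte mean. The sum of 11 B-cell markers was 3.3% to 16.5% of the splenocyte mean on resting NK arrays (highest on replicates 1 and 2) and 1.28% to 1.8% on IL-15 NK arrays, where Cd79a, Ms4a1, Cr2, Fcrla and Ebf1 were at the floor. For 12 macrophage and monocyte markers the ranges were 3.09% to 13.1% (highest on resting replicate 3) and 0.548% to 0.854%, with 8 at the floor after IL-15. For 9 T-cell markers they were 5.33% to 7.47% and 1.98% to 4.76%, with Cd3e, Cd4, Cd8b1 and Cd6 at the floor after IL-15. For 8 dendritic and class II markers they were 7.03% to 12.9% and 1.96% to 3.83%. The ratio of the 3' to the 5' control probe set of Gapdh, a sign of RNA length after amplification, was 5.88 to 9.54 for resting NK cells, 2.9 to 3.81 after IL-15 and 1 to 1.39 for splenocytes. For Actb this ratio was 2.27 to 6.51, 1.28 to 1.49 and 1.34 to 1.59 in the same order of groups. Resting NK replicate 2 had the highest value of both ratios (9.54 and 6.51). The part of other cells and of RNA length in the results below was not tested. In bulk samples fewer cells of a type and less RNA per cell cannot be told apart.

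The first comparison, which the series was built for, is IL-15 NK against resting NK cells. Erap1 alone among the 9 genes passed the test, and it rose. The 3 immunoproteasome subunits had positive differences that did not pass, and Tap1, Tap2, Tapbp, B2m and Nlrc5 had differences between -0.24 and 0.05 that did not pass. With limma (Benjamini-Hochberg adjustment over 11433 genes, threshold 0.05), 1 of 9 was higher, where 14.2% of all genes tested were higher, and 0 of 9 were lower, where 12.1% of all genes were lower. At an unadjusted p under 0.05 limma gave 2 higher (Psmb8 and Erap1) and 0 lower. The share of all genes at that unadjusted threshold is not given here. Unadjusted counts, here and below, therefore cannot be set against the shares of all genes, which are of adjusted calls. The median log2 difference was 0.05 over the 9 genes and -0.09 over all genes tested. The count of 1 became 2 without resting NK replicate 2, the added gene being Psmb8, and it was also 2, with Psmb8, when resting NK replicates 1 and 2 were both left out. In that last fit, chosen after seeing the data, the remaining resting array is assumed to vary like the IL-15 arrays. That array, replicate 3, had the highest macrophage and monocyte marker sum of the resting arrays (13.1% of the splenocyte mean).

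**Figure D1:**
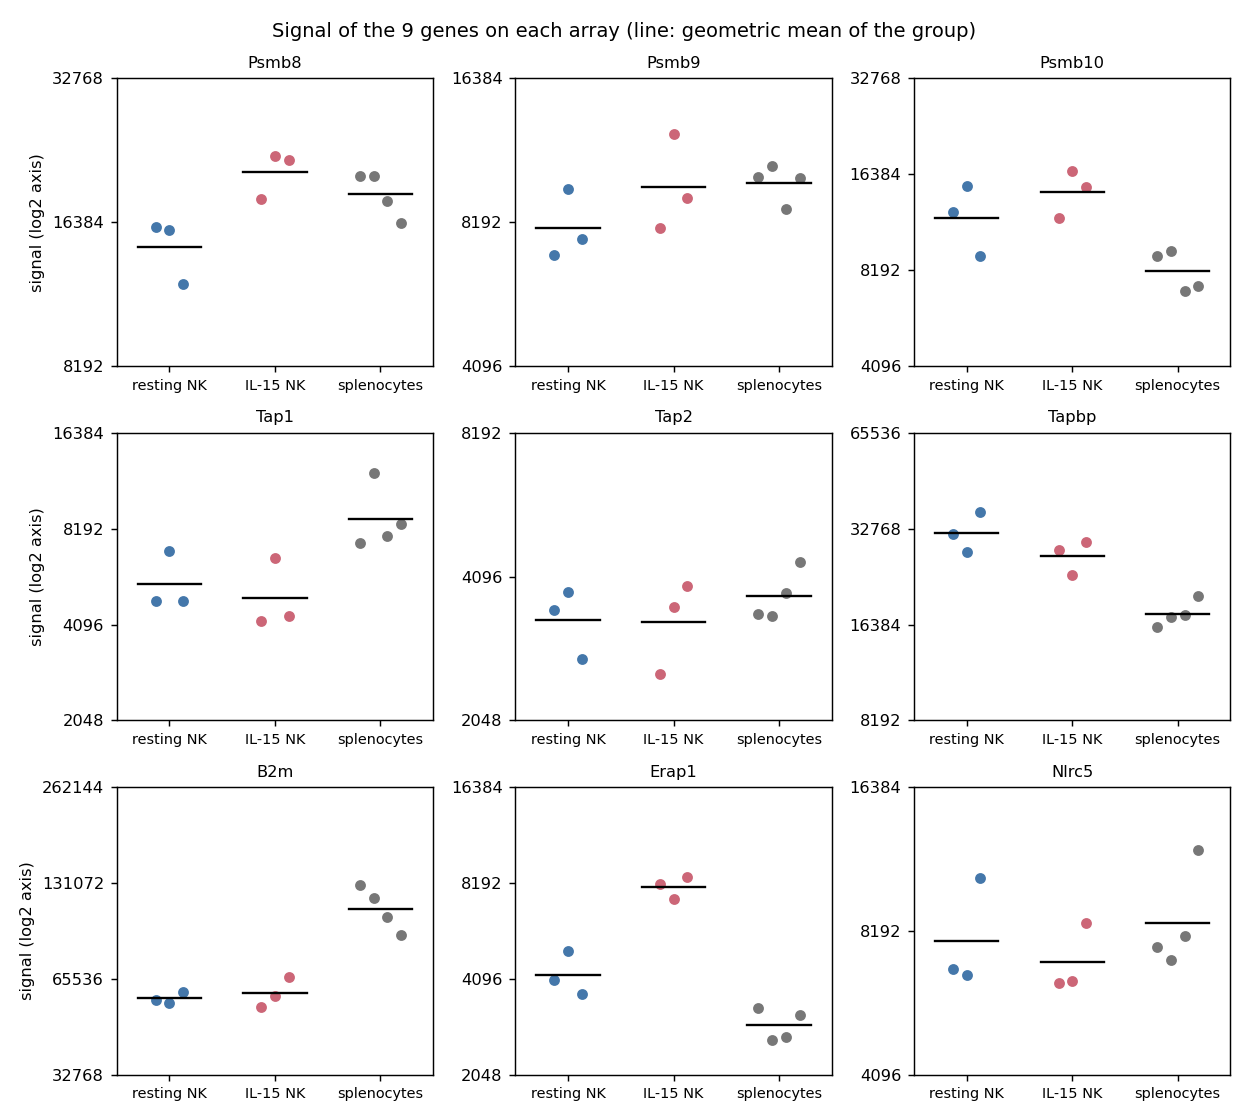
Signal of the brightest probe set of each of the 9 genes on each array (vertical log2 axis, signal units), with 1 point per array and a line at the geometric mean of the 3 resting NK arrays, the 3 IL-15 NK arrays and the 4 splenocyte chips. Erap1 is highest on the IL-15 NK arrays (7318 to 8559), B2m on the splenocyte chips (90213 to 129492) and Tapbp on the NK arrays (23446 to 36864).

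Psmb8 encodes the inducible subunit LMP7, which takes the place of Psmb5. Its signals were 15993, 15776 and 12142 on resting NK arrays 1 to 3, 18276, 22567 and 22163 on IL-15 NK arrays 1 to 3, and 20475, 20463, 18133 and 16281 on splenocyte chips 1 to 4. All IL-15 NK arrays lay above all resting NK arrays, and the splenocyte chips lay above the resting values, chips 1 and 2 among and chips 3 and 4 below the IL-15 values. With IL-15 it differed by 0.53 on the log2 scale (SE 0.18, 95% interval 0.12 to 0.93, limma adjusted p = 0.057) and did not pass. It passed without resting NK replicate 2 (adjusted p = 0.038) and when all 3 groups shared 1 variance (adjusted p = 0.037), within a range of 0.037 to 0.65 over the 16 alternatives listed in advance.

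Psmb9 encodes LMP2, the counterpart of Psmb6. It gave 6988, 9607 and 7568 on resting NK arrays, 7973, 12504 and 9195.5 on IL-15 NK arrays, and 10197, 10751, 8709.9 and 10129 on splenocyte chips. The 3 groups overlapped one another, with the lowest signal on a resting and the highest on an IL-15 NK array. The IL-15 difference was 0.28 (SE 0.21, 95% interval -0.19 to 0.76, limma adjusted p = 0.37).

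Psmb10 encodes MECL-1, the counterpart of Psmb7. On resting NK arrays its signals were 12503, 15032 and 9063, on IL-15 NK arrays 11973, 16763 and 14892, and on splenocyte chips 9060, 9409.6, 7054 and 7289. IL-15 and resting NK arrays overlapped, all IL-15 NK arrays lay above the splenocyte chips, and resting NK replicate 3 lay among the splenocyte values. The IL-15 difference was 0.27 (SE 0.22, 95% interval -0.22 to 0.76, limma adjusted p = 0.41).

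The constitutive subunits that these 3 replace rose: Psmb5, Psmb6 and Psmb7 passed the test. They were 3 of the 3 tested of 4 listed, beside 14.2% of all genes higher. Psmb11, a thymus subunit, was not above the floor often enough. Psmb5, the chymotrypsin-like subunit, gave 14301, 13420.2 and 16165 on resting and 33263, 27802 and 34708 on IL-15 NK arrays, without overlap, a rise of 1.12 (SE 0.17, limma adjusted p = 0.0011). Psmb7, the trypsin-like subunit, rose by 1.29 (SE 0.27, adjusted p = 0.0063) and Psmb6, the caspase-like subunit, by 0.66 (SE 0.18, adjusted p = 0.021). The rise of Psmb6 no longer passed without resting NK replicate 1, resting NK replicate 3, IL-15 NK replicate 2 or IL-15 NK replicate 3, where 2 of 3 passed. Without the filter on low signals only Psmb5 passed, since both Psmb6 and Psmb7 had adjusted p-values above the threshold there (0.059 and 0.094).

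The log2 ratio of each inducible subunit to its constitutive counterpart was then compared between the NK groups array by array. Probe sets differ in brightness, so the level of such a ratio has no meaning by itself and only differences between arrays are read. Psmb9 over Psmb6 was -0.51, -0.24 and -0.27 on resting and -0.88, -0.58 and -0.68 on IL-15 NK arrays, so that every IL-15 array lay below every resting array. The difference was -0.38, with an exact 2-sided permutation p = 0.1, the smallest that 3 arrays against 3 can give. Psmb8 over Psmb5 differed by -0.60 and Psmb10 over Psmb7 by -1.02, each with overlap between the groups and an exact permutation p = 0.2. Arrays were not paired by replicate number in this test. Adjusted over the 3 ratios, p was 0.2 for each. Since 3 arrays against 3 cannot reach 0.05, the test cannot show a change in a ratio or the lack of one. On the splenocyte chips the ratio was higher than on any NK array for Psmb8 over Psmb5 (1.04 to 1.19) and Psmb9 over Psmb6 (0.18 to 0.47) and lower for Psmb10 over Psmb7 (-1.87 to -1.46).

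**Figure D2:**
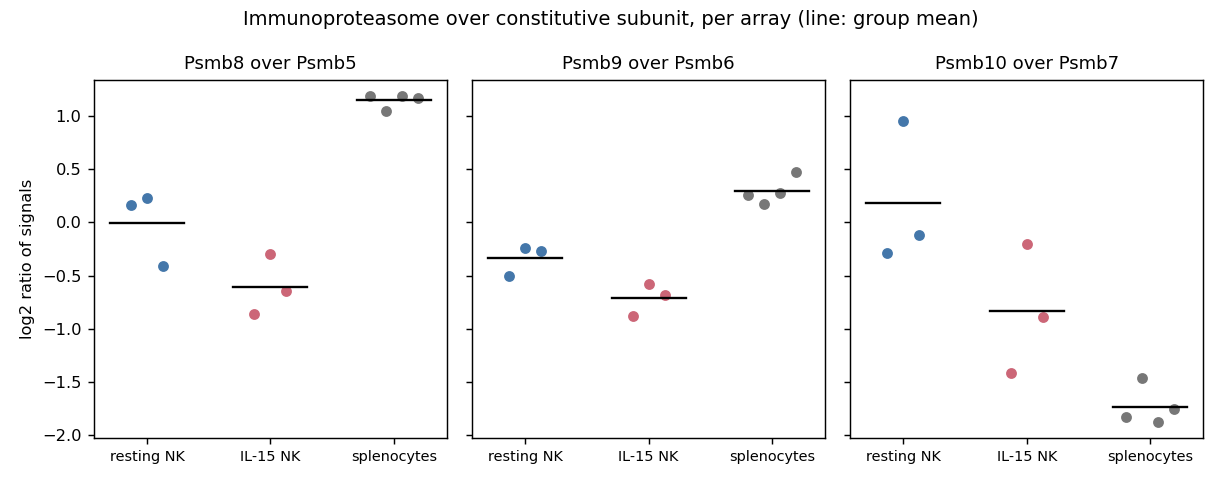
Log2 ratio of the signal of an immunoproteasome subunit to that of its constitutive counterpart (vertical axis) on each array of the 3 groups, with a line at the group mean. For Psmb9 over Psmb6 the 3 IL-15 NK arrays (-0.88 to -0.58) lie below the 3 resting NK arrays (-0.51 to -0.24), while for the other pairs the NK groups overlap.

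Tap1 and Tap2 encode the 2 subunits of the peptide transporter. Tap1 gave 4861.5, 6969 and 4849 on resting NK arrays, 4210.1, 6625.5 and 4367.5 on IL-15 NK arrays, and 7377, 12277, 7789.5 and 8447 on splenocyte chips. The NK groups overlapped, replicate 2 was the highest in both, and every splenocyte chip lay above every NK array. The IL-15 difference was -0.14 (SE 0.24, 95% interval -0.67 to 0.38, limma adjusted p = 0.70).

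Tap2 signals were 3494, 3796 and 2752.5 on resting NK arrays, 2566, 3545 and 3909 on IL-15 NK arrays, and 3426, 3382, 3783 and 4400.1 on splenocyte chips. All 3 groups overlapped. The IL-15 difference of -0.01 (SE 0.23, 95% interval -0.53 to 0.50, limma adjusted p = 0.98) allows changes of either sign.

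Tapbp, which bridges the transporter and the heavy chain, gave 31569, 27681.5 and 36864 on resting NK arrays, 28034, 23446 and 29826 on IL-15 NK arrays, and 16145, 17277, 17554 and 20091 on splenocyte chips. The NK groups overlapped and both lay above every splenocyte chip. The IL-15 difference was -0.24 (SE 0.18, 95% interval -0.64 to 0.16, limma adjusted p = 0.37).

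B2m, the light chain shared by class I molecules, had signals of 56292, 54954 and 59603 on resting NK arrays, 53576, 57810.5 and 66484 on IL-15 NK arrays, and 129492, 118071, 102381 and 90213 on splenocyte chips. The NK arrays lay close together and all below the splenocyte chips. The IL-15 difference was 0.05 (SE 0.17, 95% interval -0.32 to 0.43, limma adjusted p = 0.85), and its sign turned with each array centred on its median (-0.05).

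Erap1, the aminopeptidase that cuts peptides to the length class I molecules hold, gave 4066, 5001 and 3682 on resting NK arrays, 8124, 7318 and 8559 on IL-15 NK arrays, and 3312, 2635, 2699 and 3149 on splenocyte chips. The 3 groups did not overlap, in the order splenocytes, resting NK, IL-15 NK. With IL-15 it rose by 0.92 (SE 0.19, 95% interval 0.51 to 1.34, limma adjusted p = 0.0053), a 1.89-fold difference seen on 3 of 3 IL-15 arrays. The call held in all 16 alternatives listed in advance, with log2 differences of 0.57 to 1.04 and adjusted p-values of 0.0026 to 0.032, the smallest difference being the mean over its probe sets. The alternative that tested every probe set singly followed the brightest one alone. In that fit the other probe set of Erap1 did not pass (0.22, limma adjusted p = 0.62).

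Nlrc5, the class I transactivator, gave 6828.5, 6624 and 10584.5 on resting NK arrays, 6384, 6435 and 8504 on IL-15 NK arrays, and 7592.5, 7122, 8006 and 12099 on splenocyte chips. All groups overlapped, and 1 array or chip stood above the rest in each. The IL-15 difference was -0.15 (SE 0.23, 95% interval -0.65 to 0.35, limma adjusted p = 0.66), and its sign turned without resting NK replicate 3 (0.07).

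The other genes of the pathway were taken from lists chosen by function, with earlier results of these data known. At an unadjusted p under 0.05 in limma, 6 of 9 tested genes of proteasome activators and assembly factors were higher and 1 was lower. These unadjusted counts have no share of all genes beside them. After adjustment 5 rose in IL-15 NK cells and 0 fell, beside 14.2% and 12.1% of all genes. They were Psmg2 (by 1.87, SE 0.23, limma adjusted p = 0.00034), Psme3 (by 1.28, adjusted p = 0.0058), Psmg1 (by 0.91), Psmg3 (by 0.83) and Pomp (by 0.90, adjusted p = 0.0086). Psmg1, Psmg2 and Psmg3 encode chaperones of proteasome assembly, Pomp the maturation factor of the catalytic core, and Psme3 a nuclear activator. The interferon-inducible activator subunit Psme1 had a difference of 0.30 that did not pass. The median over this list was 0.83, and 4 or 5 genes passed without each NK replicate in turn and under both other scalings. Without the filter on low signals 4 passed, and Psme3 (adjusted p = 0.071) and Pomp (adjusted p = 0.055) were not among them.

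Other peptidases of the pathway gave 4 higher and 0 lower of 6 tested, beside 14.2% and 12.1% of all genes. At an unadjusted p under 0.05 limma gave 5 higher and 0 lower, counts without a share of all genes at that threshold. Lap3, a leucine aminopeptidase, rose from 1481, 1481 and 1348 to 5483, 3900.2 and 5512, by 1.77 (SE 0.22, limma adjusted p = 0.00036). Thop1, which degrades peptides in the cytosol, was at the floor on all resting arrays and at 474, 543 and 539 on IL-15 arrays, at least 2.88-fold higher. It entered the test through the 3 IL-15 arrays alone and so had to differ, and its place among the 4 is no support for the list. Blmh rose by 0.77 (adjusted p = 0.031) and Tpp2 by 0.52 (adjusted p = 0.048). The probe sets of Tpp2 disagreed. When every probe set was tested, 2 others were lower (-1.21 and -1.41, limma adjusted p = 0.0023 and 0.00065). Of 2 more, 1 was higher (0.93, adjusted p = 0.020) and 1 did not pass (0.79, adjusted p = 0.060). The brightest did not pass in that fit (adjusted p = 0.056), so the direction of Tpp2 depends on the probe set. Only 1 of 5 tested genes passed in this list without IL-15 NK replicate 1, 2 or 3, 2 of 6 passed without resting NK replicate 1, and 2 of 6 passed with each array centred on its median. Blmh did not pass without the filter on low signals (adjusted p = 0.17).

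At an unadjusted p under 0.05 in limma, 2 of 5 loading chaperones were higher and 0 were lower, again without a share of all genes. After adjustment 1 of 5 rose and 0 fell, beside 14.2% and 12.1% of all genes. It was Pdia3, a disulfide isomerase of the loading complex that was named after its values were seen, at 3195.5, 2889 and 3054 on resting and 9846, 7974 and 9077 on IL-15 NK arrays, a rise of 1.55 (SE 0.18, limma adjusted p = 0.00023). Its other probe set had a difference of -0.01. Calr had a difference of 0.34 and Canx of 0.55, neither past the test at its brightest probe set, while 2 other probe sets of Calr (0.67 and 0.75) and 1 of Canx (1.99) passed when every probe set was tested.

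Of 10 tested class I heavy chain genes, 0 rose and 1 fell, beside 14.2% and 12.1% of all genes, and the median was -0.51. At an unadjusted p under 0.05 limma gave 0 higher and 5 lower. The 14.2% and 12.1% are shares of adjusted calls and are no background for these unadjusted counts. The gene that fell, again named after its values were seen, was Cd1d1, which presents lipids, by 2.09 (SE 0.31, limma adjusted p = 0.00096), from 6666, 7333 and 16101 to 2058, 2089 and 2384. The classical heavy chains H2-K1 (-0.38, adjusted p = 0.16) and H2-D1 (-0.52, adjusted p = 0.076) did not pass at their brightest probe sets. With quantile normalization their differences were -0.09 and -0.27. Class I heavy chains are near-identical in sequence, so their probe sets may share signal, and 1 other probe set of H2-K1 had a difference of the opposite sign (0.37), while 1 other of H2-D1 was lower when every probe set was tested (-0.57, limma adjusted p = 0.044). The count of lower heavy chain genes was 2 under both other scalings and without resting NK replicate 2.

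Interferon signalling genes and regulators of class I gave 1 higher and 5 lower of 21 tested, beside 14.2% and 12.1% of all genes. The median over this list was -0.34. Socs1, a feedback inhibitor of cytokine signalling, was at the floor on all resting arrays and at 505, 824 and 605 on IL-15 arrays, at least 3.51-fold higher. Socs1, the 1 higher gene, likewise entered the test through the IL-15 arrays alone and so had to differ, and its call is no support for the list. It also passed without the filter on low signals (limma adjusted p = 0.015). The resting arrays were all set to the floor in that fit too, without any spread, so this pass adds no support. Rfxank, a subunit of the RFX factor that binds MHC promoters, fell by 1.35 (SE 0.33, adjusted p = 0.012), although its other probe sets had differences of -0.06 and -0.51. Ifng fell by 1.10 (SE 0.25, adjusted p = 0.0091) and Irf9 by 1.10 (SE 0.26, adjusted p = 0.012). The others that passed were the kinase gene Jak2, which fell by 0.86 (limma adjusted p = 0.016), and the transcription factor gene Irf1, which fell by 0.66 (adjusted p = 0.020). The Irf1 call was lost on leaving out any single NK array except resting NK replicate 2 (adjusted p = 0.058 to 0.067). That of Jak2 was lost without IL-15 NK replicate 3 (adjusted p = 0.070). The count of lower genes ranged from 3 to 7 without each NK replicate, was 6 and 7 under the other scalings, and was 0 without the filter on low signals. Over the same arrays the sums of the B-cell, macrophage and class II markers were lower with IL-15, as given above, and their part in these lists was not tested.

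**Figure D3:**
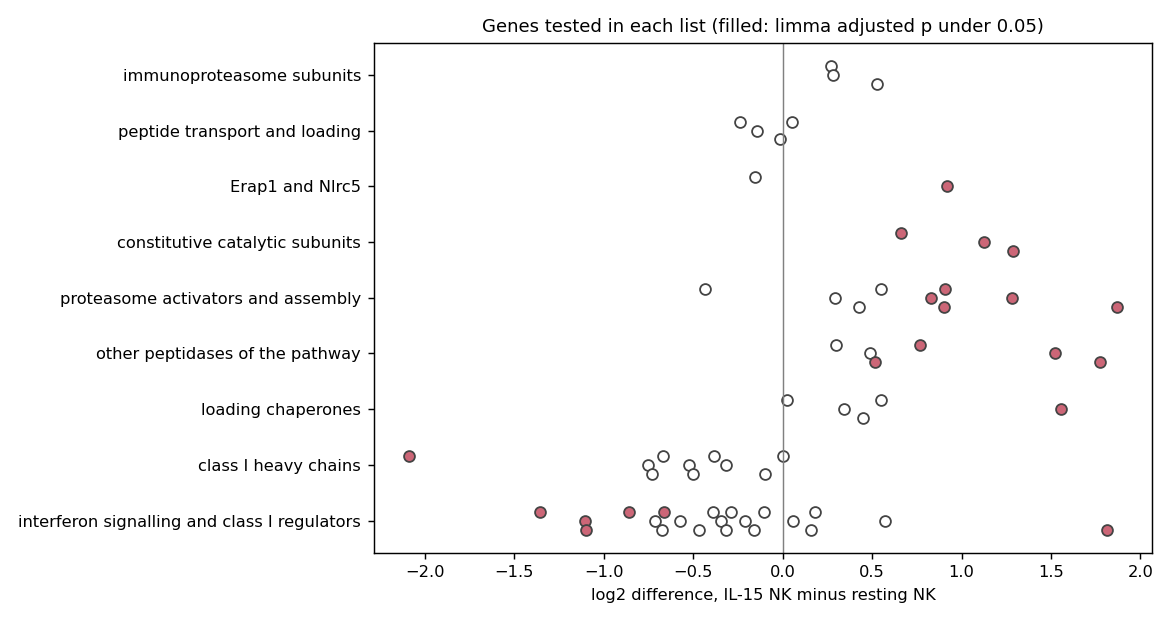
Log2 difference with IL-15 against resting NK cells (horizontal axis) for each gene tested in the lists of the pathway, 1 point per gene, filled where the limma adjusted p was under 0.05. The constitutive catalytic subunits (0.66 to 1.29) lie to the right of the immunoproteasome subunits (0.27 to 0.53), and no list holds filled points on both sides of 0 but the last.

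The second comparison set resting NK cells against splenocytes. Tapbp and Erap1 were higher and B2m was lower in resting NK cells, and the other 6 genes did not pass. Thus 2 of 9 were higher, beside 17.1% of the 12938 genes tested, and 1 of 9 was lower, beside 21.5%. Of all genes called, 44.3% were higher, and 63.9% with each array centred on its median, a step that moved the median difference of all genes from -0.06 to 0.26. The median over the 9 genes was -0.17.

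B2m was 1.92-fold lower in resting NK cells (log2 difference -0.94, limma adjusted p = 0.0032). With quantile normalization the difference was -0.55 and did not pass (adjusted p = 0.099), within a range of 0.00017 to 0.099 over its alternatives. Tapbp was 1.80-fold higher at its brightest probe set (log2 difference 0.85, adjusted p = 0.0054). Its other probe set was lower (-1.70, limma adjusted p = 0.020 when every probe set was tested), and the sign turned with the mean of both (-0.43). Erap1 was 1.44-fold higher (log2 difference 0.52, adjusted p = 0.049), a call that was lost in 10 of 16 alternatives, the omission of resting NK replicate 1 or 2 or of splenocyte chip 2, 3 or 4 among them (adjusted p = 0.062 to 0.091 there), and whose sign turned with the mean of its probe sets (-0.048).

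Of the 6 genes not called, Tap1 had the difference of greatest size, -0.68, and no overlap between the groups (adjusted p = 0.073). It passed in 3 of 16 alternatives, among them without resting NK replicate 2 (adjusted p = 0.032) and with quantile normalization (-0.78, adjusted p = 0.040). With the arrays centred Tap1 did not pass (-0.37, adjusted p = 0.25). Psmb10 had a difference of 0.55 (adjusted p = 0.11). It passed in 3 of 16 alternatives, among them without resting NK replicate 3 (adjusted p = 0.029) and with the arrays centred (0.87, adjusted p = 0.016). With quantile normalization Psmb10 did not pass (0.45, adjusted p = 0.18). Psmb8, with no overlap, had a difference of -0.37 (adjusted p = 0.14) and Psmb9 one of -0.31 (adjusted p = 0.30). Tap2 and Nlrc5 had differences of -0.17 and -0.12, and with the arrays centred these 2 and Psmb9 turned sign.

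The third comparison set IL-15 NK cells against the same splenocyte chips, which it shares with the second. Psmb10, Tapbp and Erap1 were higher, 3 of 9 beside 20.8% of the 12465 genes tested, and Tap1 and B2m were lower, 2 of 9 beside 23.5%. Over all genes called, 47.0% were higher, and 58.7% with the arrays centred. The median was -0.03 over the 9 genes and -0.10 over all genes tested, the latter 0.11 with the arrays centred.

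For Erap1 the signal after IL-15 was 2.72-fold that of splenocytes (difference 1.44, limma adjusted p = 0.00036) at its brightest probe set. This call held in all 16 alternatives, with a smallest difference of 0.52. The other probe set of Erap1 had the opposite sign and did not pass (-0.40, limma adjusted p = 0.26 when every probe set was tested). The direction thus differed between its 2 probe sets. B2m was 1.85-fold lower (difference -0.88, adjusted p = 0.0037) and again did not pass with quantile normalization (difference -0.34, adjusted p = 0.29). Psmb10 was 1.77-fold higher (difference 0.82, adjusted p = 0.024), a call lost in 4 of 16 alternatives, without IL-15 NK replicate 2 or 3 (adjusted p = 0.067 and 0.062), with no filter (0.074) and with quantile normalization (0.054). Tapbp was 1.52-fold higher (difference 0.61, adjusted p = 0.022), a call lost without IL-15 NK replicate 1 or 3 (adjusted p = 0.060 and 0.071) and with quantile normalization (0.10), beside the turn of its sign with the mean of its probe sets. Tap1 was 1.77-fold lower (difference -0.83, adjusted p = 0.034), a call lost in 6 of 16 alternatives. Among these were the omission of IL-15 NK replicate 1 or 3 or splenocyte chip 2 (adjusted p = 0.095, 0.093 and 0.063), centred arrays (difference -0.62, adjusted p = 0.060), no filter (adjusted p = 0.091) and the mean of its probe sets, of which 3 were near or under the floor (difference -0.19, adjusted p = 0.32). Psmb8 (0.16), Psmb9 (-0.03), Tap2 (-0.18) and Nlrc5 (-0.27) did not pass.

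**Figure D4:**
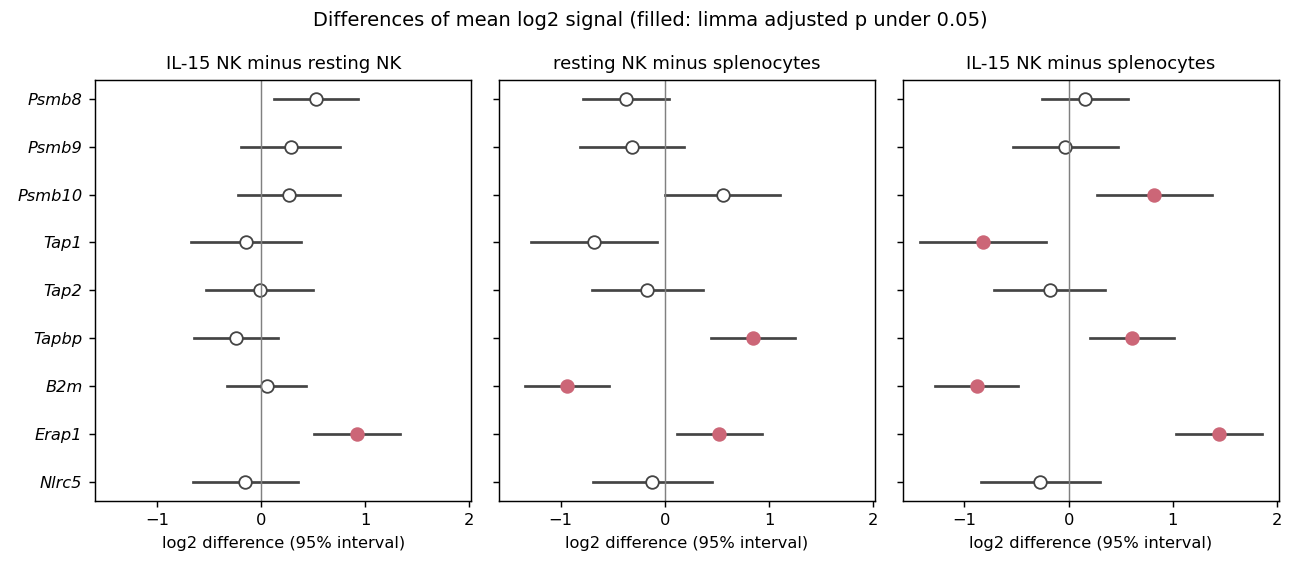
Difference of mean log2 signal for each of the 9 genes (horizontal axis, point) with its 95% interval (line) in the 3 comparisons, filled where the limma adjusted p was under 0.05. Erap1 is filled in all 3 panels, B2m and Tapbp in the 2 panels against splenocytes, and Psmb10 and Tap1 only in the comparison of IL-15 NK cells with splenocytes.

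The other lists were set against splenocytes too, and here as well amplification and cell type cannot be told apart. The adjusted counts below stand beside these shares of all genes tested, while the unadjusted counts have no share of all genes beside them. In resting NK cells 17.1% were higher and 21.5% lower, and in IL-15 NK cells 20.8% were higher and 23.5% lower. Of 9 proteasome activators and assembly factors, 7 were lower and 0 higher in resting NK cells by limma (also at an unadjusted p under 0.05), beside 21.5% and 17.1% of all genes, Pomp (-1.58) and Psme1 (-1.24) among them, and 3 were lower and 2 higher in IL-15 NK cells. With the arrays centred these counts became 5 lower and 0 higher, and 0 lower and 2 higher, so the direction of this list in IL-15 NK cells depends on the scaling. Of the constitutive subunits, Psmb5 was higher (0.78) and Psmb7 lower (-1.36) in resting NK cells, and Psmb5 (1.91) and Psmb6 (0.98) were higher in IL-15 NK cells. Of 10 heavy chain genes 1 was lower in resting and 3 were lower in IL-15 NK cells, with 0 higher in both (1 and 0 at an unadjusted p under 0.05 in limma), and H2-K1 (0.13 and -0.25) and H2-D1 (0.32 and -0.20) did not pass in either. H2-K1 and H2-D1 encode the classical chains that pair with the B2m protein. With the arrays centred 2 heavy chain genes were higher in resting NK cells. Among 5 loading chaperones Canx was higher and Pdia3 lower in both NK groups (1.41 and -2.40 at rest, 1.96 and -0.85 after IL-15). Of 6 other peptidases 1 was higher and 2 were lower in resting NK cells (2 and 0 with the arrays centred). Of the 2 lower genes, Thop1 was at the floor on all resting NK arrays and entered that test through splenocyte chips alone. It had to be lower, and its place among the 2 is no support for the list. In IL-15 NK cells 5 of the 6 were higher and 0 lower (5 and 0 at an unadjusted p under 0.05 in limma). Of 22 regulators 5 were higher and 6 lower in NK cells at rest, and 5 higher and 8 lower after IL-15, with Ifng higher by 5.84 and 4.74. Ifngr2, among the lower genes of both comparisons, was at the floor on all NK arrays and entered through the splenocyte chips alone. It had to be lower, and its place in these counts is no support for the list.

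Of the 9 genes, 5 had several probe sets, and these did not always give the same picture. The other probe set of B2m gave 10857, 7693 and 10098 on resting NK arrays, 10532, 24405 and 24555 on IL-15 NK arrays, and 118420, 123664, 106818 and 99645 on splenocyte chips. IL-15 NK replicate 1 lay among the resting values and the other 2 above them, and the difference of 0.97 passed when every probe set was tested (limma adjusted p = 0.044), unlike the 0.05 of the brightest probe set. Between resting NK cells and splenocytes its difference was -3.56, where that of the brightest was -0.94.

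The other Tapbp probe set gave 973, 627 and 881 on resting NK arrays, 362, 1199 and 619 on IL-15 NK arrays, and 2752, 3354, 2579.7 and 2073 on splenocyte chips. It was lower in resting NK cells than in splenocytes (difference -1.70, limma adjusted p = 0.020 when every probe set was tested), opposite to the brightest probe set. The direction of Tapbp between NK cells and splenocytes thus differed between its 2 probe sets, and the mean of both gave -0.43 for resting NK (adjusted p = 0.19) and -0.72 for IL-15 NK cells (adjusted p = 0.039).

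For Erap1 the other probe set gave 749, 751.5 and 989.7 for resting NK cells, 1046, 1077.5 and 782 after IL-15 and 1383, 1148, 1178 and 1357 for splenocytes. Its IL-15 difference of 0.22 had overlapping groups and did not pass (limma adjusted p = 0.62), and against splenocytes its resting NK difference was -0.62 (adjusted p = 0.097), so the order of the groups was not that of the brightest probe set. The other Psmb8 probe set had differences of -0.24 with IL-15 and 0.60 between resting NK cells and splenocytes, neither past the test. The 3 other Tap1 probe sets were above the floor on 1, 1 and 0 of 10 arrays.

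**Figure D5:**
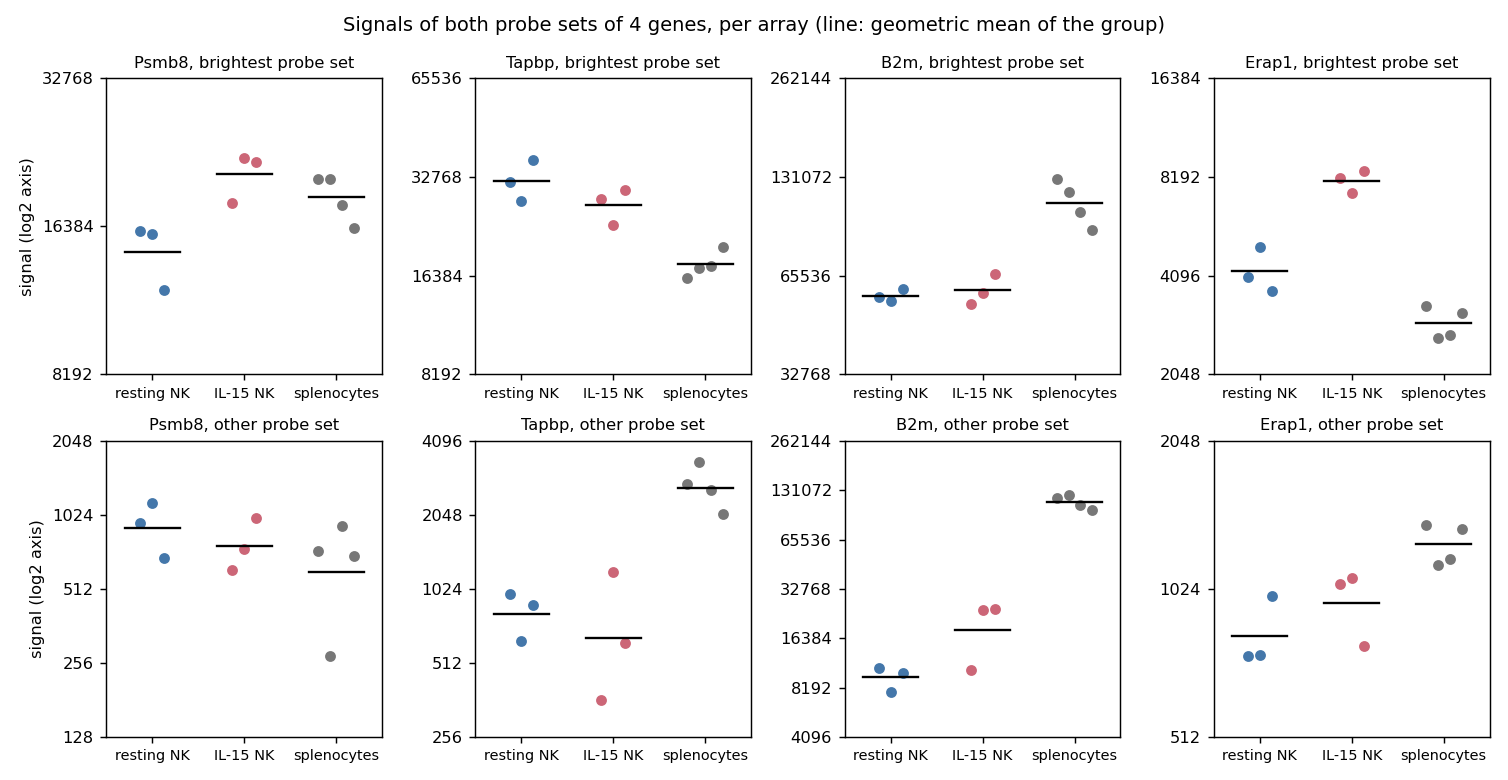
Signals per array (vertical log2 axis, signal units) of the brightest probe set (upper row) and the other probe set (lower row) of Psmb8, Tapbp, B2m and Erap1, with a line at the geometric mean of each group. For Tapbp the splenocyte chips are lowest in the upper row (16145 to 20091) and highest in the lower row (2073 to 3354).

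Across the 10 arrays the 9 genes did not follow one pattern. Pearson correlations of log2 signal between them, which also carry the differences between groups and the amplification, ran from -0.89 (Tapbp and B2m) to 0.82 (Psmb10 and Erap1). Psmb9 and Tap1, whose promoter windows overlap, had 0.63, and Psmb8 and Psmb9 had 0.65. Over the 6 NK arrays alone the extremes did not hold, with 0.24 for Tapbp and B2m and 0.60 for Psmb10 and Erap1, while Psmb10 and Tapbp went from 0.51 over 10 arrays to -0.87, and Psmb8 and Psmb9 had 0.66. Among 10962 other genes, those most like Erap1 were Rbpj (0.99), Cct7 (0.99) and Hspa9 (0.98), and those most like Tapbp were Ubr3 (0.99), Gnptab (0.99) and Rtn4 (0.99). The nearest to B2m were ND5, Ube2w and Sbds (0.98, 0.98 and 0.97), to Psmb8 Nubp1, Eif3l and Micos13 (0.95 each), and to Psmb10 Agpat2, Pdcl3 and Vim (0.98, 0.98 and 0.97). Psmb9 was nearest to Rex1bd (0.94), Tap1 to 2310009B15Rik (0.96), Tap2 to Hes6 (0.91) and Nlrc5 to D5Ertd579e (0.92). None of the 9 genes was among the 3 nearest to another.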

How the data were processed

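Arrays were 1-colour Affymetrix MOE430_2 chips, and RNA was amplified in 2 cycles (NK cells) or 1 cycle (splenocytes), per the labels' protocols. The authors deposited a linear intensity for each probe set on each array. GCOS 1.4 is named in the submitters' processing notes, and how it summarised probes, and to which target it scaled, is not given in the sources used here. After trimming 2% at each end, the mean intensity was 1500.01 on all 10 arrays, so no further scaling was applied.

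The floor was the median over arrays of each array's 40th percentile. Of 45101 probe sets, 34945 had 1 gene symbol in GEO's platform annotation, 932 several and 9160 none, and 64 were controls. For each gene the probe set brightest on average (log2 intensity) was used, and a gene entered a comparison when 3 or more arrays of its groups exceeded the floor. limma 3.58.1 in R 4.3.3 (lmFit, eBayes with trend, 2-sided p adjusted by Benjamini-Hochberg over all genes, threshold 0.05) compared the 6 NK arrays with no replicate block. For splenocytes, all groups shared 1 variance, chips were averaged in pairs under each of 3 possible pairings, and the largest p was kept. Fits were tested on simulated data. Alternatives covered the floor, the filter, scaling, probe sets, trend, block and each array left out. The number of arrays limits the precision.

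The 9 genes and the lists were chosen with earlier results of these data known. Named genes are the 9, up to 4 genes per list past the threshold with the largest IL-15 difference (or the 2 brightest where fewer than 2 passed), and the 3 nearest in correlation. Psmg3, Psme1, Jak2, Irf1, Cd1d1 and Pdia3 were named after their values were seen.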

Additional observations from a re-analysis of the deposited data

How the results depend on the processing

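Without each array in turn, the number of the 9 genes called ranged from 1 to 2 for IL-15 against resting NK, 2 to 4 for resting NK against splenocytes and 2 to 5 for IL-15 NK against splenocytes, and the number of all genes called from 1963 to 3241, 4441 to 5188 and 4616 to 5221. The subunit ratio differences ranged from -0.80 to -0.47 (Psmb8 over Psmb5), -0.46 to -0.29 (Psmb9 over Psmb6) and -1.33 to -0.63 (Psmb10 over Psmb7). With 1 variance over all 3 groups, 2 of the 9 were called with IL-15, and 2 without resting NK replicates 1 and 2. In resting NK against splenocytes 1 was called with the mean of all probe sets and 5 with the chips as independent samples. In IL-15 NK against splenocytes 3 were called with no filter and 2 with quantile normalization. Over all genes, 1646 were called with IL-15 with no filter, and 5004, 9129 and 9797 probe sets in the 3 comparisons when tested singly, a count of probe sets rather than genes.

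Signs turned with the arrays centred for B2m with IL-15 (-0.047), for Psmb9 (0.0031), Tap2 (0.15) and Nlrc5 (0.20) in resting NK against splenocytes, and for Psmb9 (0.18) and Tap2 (0.025) in IL-15 NK against splenocytes. They turned with the mean of probe sets for Psmb8 (0.12), Tapbp (-0.43) and Erap1 (-0.048) in resting NK and for Tapbp (-0.72) in IL-15 NK, and with quantile normalization for Psmb8 (-0.017) in IL-15 NK. Leaving out 1 array gave, with IL-15, -0.35 to 0.030 for Tap1, -0.15 to 0.17 for Tap2, -0.29 to 0.067 for Nlrc5 and -0.032 to 0.12 for B2m, and against splenocytes -0.34 to 0.028 for Nlrc5 in resting and -0.21 to 0.11 for Psmb9 in IL-15 NK. Without resting NK replicates 1 and 2, an alternative chosen after seeing the data, Tap1 (0.032), Tap2 (0.26) and B2m (-0.013) turned with IL-15. Beyond the averaged probe sets, the cause was not tested.

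The design speaks of 3 pairs of NK samples without tying them to the replicate numbers. Deviations of same-numbered arrays correlated at 0.10, 0.28 and 0.07, and those of differently numbered arrays at -0.22 to 0.15. These values do not settle whether the numbers mark the pairs. Because the labels do not say so, the main fit and the permutation test did not use them as pairs. With the replicate block 3421 genes were called with IL-15, 1 of the 9 genes among them. The 9 brightest probe sets were above the floor on 10 of 10 arrays, while the other Tap1 probe sets were near or under the floor.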
